A study of Mus musculus with 6 samples.

Results

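Beta cells carrying an insulin reporter were compared with the islet cells that lacked it, to find the genes that immature and mature beta cells share against the other cells of the same islets. The 4 mCherry-positive libraries (2 immature and 2 mature) were set against the 2 double negative libraries, and together they are all 6 libraries of the study. A gene belonged to the comparison when all 4 positive libraries lay above, or all 4 below, both double negative libraries. Of 46959 listed genes, 13367 reached at least 1 RPKM (reads scaled to gene length and library size) in at least 2 libraries and were tested. All 4 positive libraries lay above both double negative libraries for 3357 genes (25.1% of those tested) and below both for 1724 genes (12.9%), while the groups overlapped for 8286.

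All 3 populations came from islets of adult mice that carried both the Ins1-H2b-mCherry reporter and the Ucn3-eGFP reporter. Ins1-H2b-mCherry places a red histone fusion in the nucleus of cells that use the Ins1 promoter, and Ucn3-eGFP marks cells that use the promoter of Ucn3, a peptide gene switched on late in beta cell maturation. Immature beta cells were positive for mCherry alone, mature beta cells were positive for mCherry and eGFP, and double negative cells carried neither signal. Each library pooled the islets of 10 to 12 animals, which had been kept overnight in 5.5 mM glucose, dissociated with trypsin and sorted. The sample labels call replicate 1 male and replicate 2 female, whereas the design text speaks of females only. Xist, the RNA of the inactive X chromosome, was present in all 6 libraries, and its lowest value was 21.4 RPKM. The Y-linked genes Eif2s3y and Ddx3y were highest in immature replicate 2, which is labelled female, at 2.23 and 1.23 RPKM, and at most 0.161 RPKM in the other 5 libraries. Nothing states that the pools of a population came from separate sorts. A p-value here speaks to the spread between replicates within the 3 populations and no further, and leaves out the distance between immature and mature cells.

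The pancreatic islet holds several endocrine cell types, each defined by its hormone. Beta cells make insulin, alpha cells glucagon, delta cells somatostatin and PP cells pancreatic polypeptide. Beta cells take up glucose, burn it in mitochondria, close ATP-sensitive potassium channels and release insulin granules when calcium enters. Transcription factors such as Pdx1, Nkx6-1 and Mafa maintain this program, and Irx1 and Hhex belong to the programs of alpha and delta cells. A bulk measurement cannot tell fewer cells of a type apart from less RNA per cell.

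Promoter windows are shown for 4 genes of hormones or hormone processing on which the comparison turns, a pair higher in beta cells (Ins1 and the prohormone convertase gene Pcsk1) and a pair higher in double negative cells (Gcg and Sst). Each window is from RefSeq on GRCm38.p6, read 5′ to 3′ along the gene, and covers 250 bases before to 50 bases after the annotated start. Capitals mark GCCATCTG, an insulin-promoter E-box, TGACGTCA, the cyclic AMP response element, or TATAAA, the TATA box. TAATTA, a homeodomain core, was searched as well, and both strands were read. The windows lie at chr19:52264047-52264346 on the plus strand for Ins1, chr13:75089607-75089906 on the plus strand for Pcsk1, chr2:62483604-62483903 on the minus strand for Gcg and chr16:23890795-23891094 on the minus strand for Sst.
Ins1: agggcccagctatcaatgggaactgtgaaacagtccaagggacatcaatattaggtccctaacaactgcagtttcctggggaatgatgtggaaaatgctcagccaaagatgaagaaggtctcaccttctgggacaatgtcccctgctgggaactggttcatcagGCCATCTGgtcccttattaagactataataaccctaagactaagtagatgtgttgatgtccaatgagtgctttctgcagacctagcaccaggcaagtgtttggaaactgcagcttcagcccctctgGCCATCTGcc
Pcsk1: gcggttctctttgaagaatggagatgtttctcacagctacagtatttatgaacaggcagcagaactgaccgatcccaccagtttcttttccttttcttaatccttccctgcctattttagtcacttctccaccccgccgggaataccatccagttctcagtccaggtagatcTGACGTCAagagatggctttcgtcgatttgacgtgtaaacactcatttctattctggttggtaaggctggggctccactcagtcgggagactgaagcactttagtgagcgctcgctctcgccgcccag
Gcg: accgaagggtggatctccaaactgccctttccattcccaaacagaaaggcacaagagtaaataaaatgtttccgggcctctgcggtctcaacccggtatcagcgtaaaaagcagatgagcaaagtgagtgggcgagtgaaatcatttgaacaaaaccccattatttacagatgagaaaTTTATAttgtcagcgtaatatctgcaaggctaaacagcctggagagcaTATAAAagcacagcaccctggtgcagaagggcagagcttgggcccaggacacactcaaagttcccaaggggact
Sst: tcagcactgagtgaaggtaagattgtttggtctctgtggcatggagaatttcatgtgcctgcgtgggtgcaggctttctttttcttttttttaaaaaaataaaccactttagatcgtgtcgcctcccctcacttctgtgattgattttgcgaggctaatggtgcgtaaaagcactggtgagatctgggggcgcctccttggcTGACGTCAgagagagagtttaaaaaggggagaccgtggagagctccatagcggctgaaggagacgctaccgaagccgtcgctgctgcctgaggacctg
Ins1 held GCCATCTG beginning 86 bases before and again 40 bases after the start. The cyclic AMP element began 78 bases before the start of Pcsk1 and 48 bases before that of Sst, so the same letters stood in a gene higher and in a gene lower in beta cells. Gcg held TATAAA 24 bases before the start and, on the other strand, 72 bases before it. Among 32851 windows of this length, 1.32% held GCCATCTG, 1.79% TGACGTCA, 13.62% TATAAA and 5.29% TAATTA. Among the windows of genes higher in beta cells by the test described next these shares were 0.97%, 4.21%, 7.11% and 3.0%, among those of lower genes 0.88%, 2.42%, 7.61% and 2.64%, and among those of all tested genes 0.95%, 3.03%, 7.41% and 2.67%. A match of letters is a description and not a bound site. RefSeq windows were matched for 9689 of the 13367 tested genes. Ins2 and Bace2 had no entry.

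Differences were tested with limma on log2(RPKM + 1), as the mean of the immature and mature means minus the double negative mean, and they are given on that scale with the standard error (SE). This scale understates the change of low genes. A gene was called when its groups did not overlap and its Benjamini-Hochberg adjusted p over all tested genes was under 0.05. By this rule 2953 genes (22.1%) were higher and 1478 (11.1%) lower in the beta cell libraries. The split of calls between the directions depended on the scaling of the libraries: 66.6% of calls were higher with RPKM as deposited, 48.9% after median-ratio rescaling, 41.4% after quantile normalization and 36.3% after rescaling without hormone and acinar genes. The median difference of all tested genes moved with it, from 0.11 as deposited to 0.03, -0.02 and -0.06 in that order. Under all 3 rescalings, 1362 genes (10.2% of those tested) were still called higher and 1387 (10.4%) lower. A single mean for the 4 positive libraries, which counts the distance between immature and mature cells as error, called only 413 genes higher and 150 lower. Without both immature libraries 3781 of the 13367 tested genes were higher and 5234 lower in mature cells. Limma with overlap of the groups allowed passed 4424 genes as higher and 2241 as lower.

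The immature libraries were the shallowest, at 2393841 and 3448925 reads recovered from the steps of the RPKM values, against 22063867 to 26824385 reads in the other 4. Replicates differed across genes with an SD, on the log2 scale, of 0.393 for the immature pair, 0.132 for the mature pair and 0.222 for the double negative pair. A few hormone genes took much of each library. Ins2 held 12.0% and 12.4% of summed RPKM in immature, 33.2% and 34.8% in mature and 0.263% and 0.563% in double negative cells, and Gcg held 40.3% and 38.9% in double negative cells. Genes of other cell types were also present in the immature libraries. Their 12 alpha cell markers summed to 29267 and 19940 RPKM, against 702 and 907 in mature and 178484 and 172040 in double negative cells, and the part of such cells in the differences below was not tested.

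The label of the positive libraries held for the insulin genes. Ins2 (chr7:142678656-142743381, minus strand, GRCm38, protein coding, a span that takes in read-through models) stood at 44932 and 49012 RPKM in immature, 158137 and 170715 in mature and 1126 and 2412 in double negative cells. Every positive library was at least 18.6 times the higher double negative library, and the difference was 5.73 (SE 0.30, limma adjusted p = 6.2e-05). Ins1 (chr19:52264297-52265476, plus strand), whose promoter drives the sorting reporter, ran from 11992 to 13389 RPKM in immature, 46606 to 49447 in mature and 336 to 735 in double negative cells. It lay 5.63 higher (SE 0.30, limma adjusted p = 6.4e-05) and is a check of the sort rather than a finding. Insulin transcripts were therefore not at 0 in the double negative libraries, where both were about as far apart between the replicates.

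**Figure D1:**
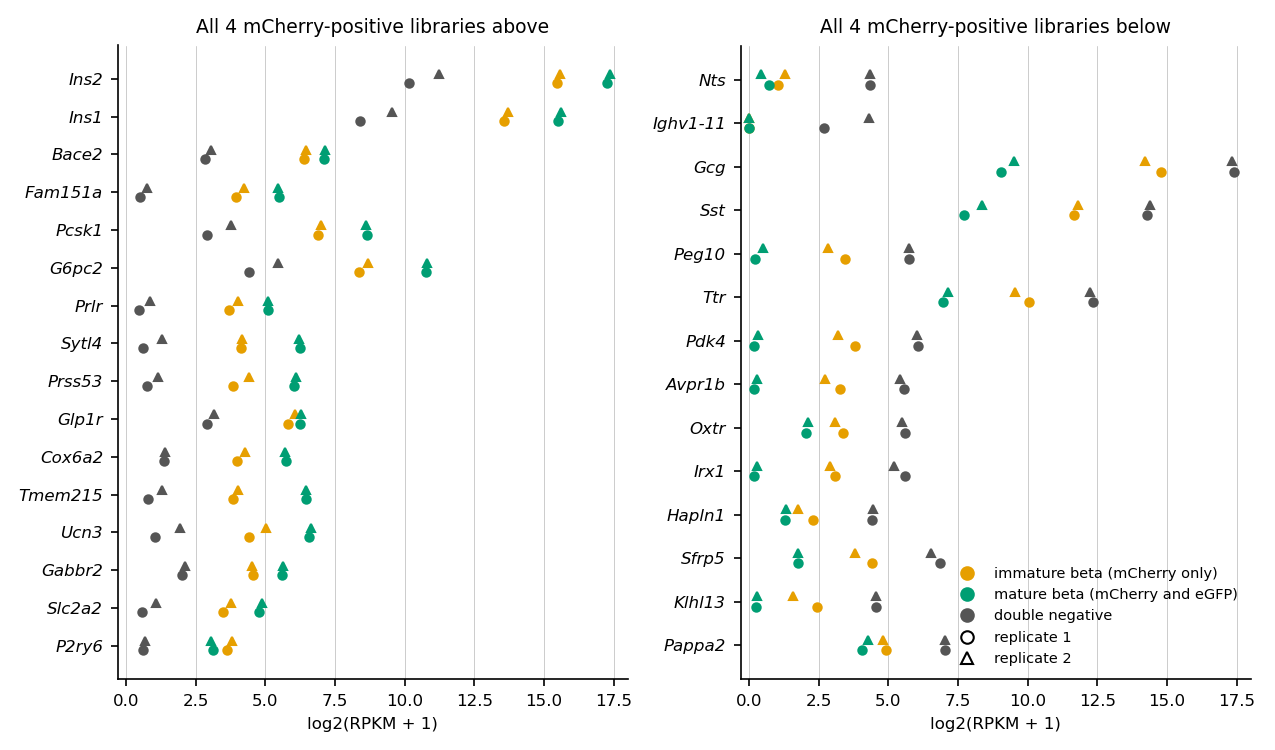
Each row is a gene and each point a library, placed by log2(RPKM + 1), for the genes with the widest distance between the nearest positive and the nearest double negative library in each direction. Double negative points lie left of all positive points in the upper set and right of them in the lower set, and Ins2 has the widest distance among higher genes.

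After Ins2 and Ins1, the widest distances above the double negative libraries were those of Bace2, Fam151a, Pcsk1, G6pc2, Prlr and Sytl4, in that order. This distance, called the gap here, is the log2 difference between the lowest positive and the highest double negative library, and it was at least 2-fold for 210 higher genes and at least 4-fold for 33. Bace2, a membrane protease of beta cells, stood at 82.7 and 86.7 RPKM in immature, 137 and 138 in mature and 6.20 and 7.21 in double negative cells (difference 3.83, SE 0.06, limma adjusted p = 1.2e-05). Its groups were far apart and its replicates close, and it kept its call in every alternative run. Pcsk1, the convertase that cuts proinsulin, stood at 117 and 128, 395 and 393, and 6.54 and 12.7 RPKM in the same order (4.44, SE 0.22). G6pc2, the islet glucose-6-phosphatase, stood at 324 and 408, 1747 and 1760, and 20.2 and 43.3 RPKM (4.71, SE 0.29). Both were lower in the immature stage, yet even the lowest immature library was 9.17 times the highest double negative library for Pcsk1 and 7.5 times for G6pc2.

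Several receptor genes were also among the 14 named for their gaps. Glp1r, the receptor of the incretin GLP-1, stood at 55.6 and 66.0 RPKM in immature, 73.7 and 76.0 in mature and 6.52 and 7.97 in double negative cells (3.06, SE 0.10). In RPKM as deposited, both stages were near the same level. Prlr, the prolactin receptor, stood at 12.0 and 15.2, 32.8 and 33.3, and 0.378 and 0.817 RPKM (3.81, SE 0.14). Gabbr2, a subunit of the GABA-B receptor, stood at 22.6 and 22.2, 47.8 and 48.9, and 2.98 and 3.30 RPKM (3.04, SE 0.05). P2ry6, a receptor for the nucleotide UDP, was the reverse in stage order, with 11.4 and 13.0 RPKM in immature, 7.68 and 7.21 in mature and 0.515 and 0.613 in double negative cells (2.76, SE 0.08). All 4 are receptors at the cell surface, and only P2ry6 of them was higher in the immature stage. Sytl4, a granule docking protein also called granuphilin, stood at 16.5 and 16.9, 74.1 and 73.7, and 0.539 and 1.47 RPKM (4.22, SE 0.18). Slc2a2, the glucose transporter GLUT2, stood at 10.2 and 12.6, 26.6 and 28.7, and 0.48 and 1.12 RPKM (3.41, SE 0.16). Both were lower in the immature than in the mature stage.

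Other genes with wide gaps included Cox6a2, a muscle-type subunit of cytochrome c oxidase, at 14.7 and 18.3 RPKM in immature, 52.1 and 50.4 in mature and 1.60 and 1.62 in double negative cells (3.53, SE 0.09), with 10.3% of its exonic bases shared with Itgad on the opposite strand. Tmem215, a membrane protein of the endoplasmic reticulum, stood at 13.4 and 15.3, 86.8 and 85.8, and 0.736 and 1.44 RPKM (4.15, SE 0.14). Fam151a stood at 14.3 and 17.9, 43.7 and 42.6, and 0.401 and 0.663 RPKM (4.17, SE 0.11), and Prss53 at 13.3 and 20.1, 64.7 and 66.8, and 0.68 and 1.22 RPKM (4.14, SE 0.18). Fam151a shares 65.7% of its exonic bases with Acot11 on the opposite strand and Prss53 shares 76.7% with the read-through model Gm21974. The library kit does not mark strand, so the reads of such genes cannot be told apart with certainty.

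Among the genes lower in beta cells, 145 had a gap of at least 2-fold and 17 of at least 4-fold. The hormone genes Gcg and Sst came after Nts and Ighv1-11 in the order of gaps. Gcg, which encodes glucagon (chr2:62474530-62483650, minus strand), stood at 28018 and 19012 RPKM in immature, 532 and 723 in mature and 172629 and 166608 in double negative cells. The immature libraries lay far above the mature and still 5.95 times or more below the double negative libraries, and the difference was -5.49 (SE 0.20, limma adjusted p = 2.5e-05). Sst (chr16:23889573-23890958, minus strand), which encodes somatostatin, stood at 3214 and 3543, 211 and 327, and 19746 and 21309 RPKM (-4.44, SE 0.18). Ttr, the thyroid hormone carrier transthyretin and an alpha cell marker, stood at 1046 and 755, 125 and 139, and 5252 and 4865 RPKM (-3.88, SE 0.14). For these genes immature cells again lay between mature and double negative cells.

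The widest gap on the lower side was that of Nts (chr10:102481756-102490486, minus strand), which encodes the peptide neurotensin. It stood at 1.07 and 1.48 RPKM in immature, 0.645 and 0.349 in mature and 19.2 and 19.2 in double negative cells (-3.46, SE 0.12, limma adjusted p = 2.2e-05), and its immature values rest on 3.2 and 6.4 estimated reads. On the log2 scale its stages lay nearer to each other than those of Gcg, though both immature values were above both mature values. A pair of hormone receptor genes was among these genes too. Oxtr, the oxytocin receptor, stood at 9.42 and 7.57, 3.16 and 3.29, and 47.8 and 44.3 RPKM (-2.89, SE 0.09), and Avpr1b, a vasopressin receptor, at 8.62 and 5.62, 0.147 and 0.222, and 46.8 and 42.0 RPKM (-3.88, SE 0.15). Pappa2, a protease that cuts insulin-like growth factor binding proteins, stood at 29.6 and 26.9, 15.8 and 18.2, and 130 and 129 RPKM (-2.51, SE 0.07).

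The other genes named for their gaps on the lower side have varied roles. Pdk4, a kinase that shuts down pyruvate dehydrogenase, stood at 13.1 and 8.26 RPKM in immature, 0.132 and 0.255 in mature and 66.7 and 64.4 in double negative cells (-4.17, SE 0.17). Peg10, a paternally expressed gene derived from a retroelement, stood at 9.77 and 6.13, 0.177 and 0.425, and 53.1 and 52.7 RPKM (-4.00, SE 0.18). Both were nearly absent from mature cells. Sfrp5, a secreted Wnt inhibitor, stood at 20.4 and 13.0, 2.40 and 2.35, and 114 and 91.5 RPKM (-3.75, SE 0.18). Hapln1, a linker of the extracellular matrix, and Klhl13, an adaptor of a ubiquitin ligase, were lower by -2.75 (SE 0.15) and -3.42 (SE 0.23). Ighv1-11, an immunoglobulin variable segment whose reads can be shared with near-identical segments, was listed at 0 in all 4 positive libraries and at 5.42 and 18.8 RPKM in double negative cells. In the immature libraries 3 reads of it would have been 3.57 and 2.48 RPKM, so no fold is given.

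Products of the insulin granule did not move as one. Of 17 genes listed for insulin and its granule, 8 rose, 5 fell and 4 did not pass, against 22.1% higher and 11.1% lower of all tested genes. Their median difference was 0.36 against 0.11 for all tested genes. Besides insulin and Pcsk1, Iapp, which encodes the co-secreted peptide amylin, stood at 15519 and 15030 RPKM in immature, 39604 and 40956 in mature and 3208 and 3802 in double negative cells (2.83, SE 0.11). Its call was lost when genes of any level were tested. The granins Chgb, Scg3, Scg2 and Chga rose by 1.85, 1.18, 0.58 and 0.49, where Scg2 lost its call under all 3 rescalings and Chga and Scg3 under quantile normalization. Chgb stood at 1986 and 1888, 2935 and 3015, and 635 and 692 RPKM, so that its immature values lay between the mature and the double negative values.

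Other granule genes were lower in beta cells. Slc30a8, the zinc transporter that loads insulin granules, stood at 117 and 106 RPKM in immature, 94.6 and 94.9 in mature and 199 and 205 in double negative cells (-0.97, SE 0.05, limma adjusted p = 7.8e-05). Pcsk1n, which encodes an inhibitor of the convertase made from Pcsk1, stood at 194 and 251, 202 and 207, and 743 and 485 RPKM (-1.49, SE 0.19). Pcsk2, the convertase that cuts proglucagon, fell by 0.56 and its chaperone gene Scg5 by 0.65, a call lost under quantile normalization. The receptor-like phosphatase Ptprn2 fell by 0.41 on the log2 scale. Cpe, the carboxypeptidase that trims prohormones, stood at 1284 and 1219, 2268 and 2260, and 2149 and 1982 RPKM, with overlapping groups.

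**Figure D2:**
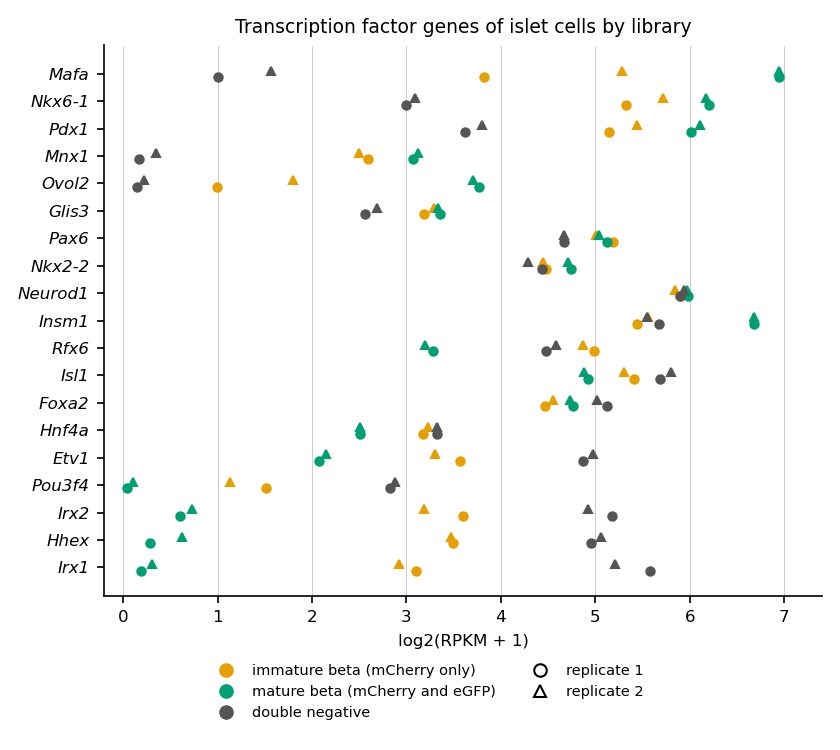
Each row is a transcription factor gene and each point a library, placed by log2(RPKM + 1), for the beta cell factors (top), a selection of factors shared by endocrine cells (middle) and factors of non-beta cells (bottom). All 5 beta cell factors lie higher and the non-beta factors drawn (Etv1, Pou3f4, Irx2, Hhex and Irx1) lower in the positive libraries, while the shared factor Neurod1 shows all 6 libraries together.

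Transcription factors separated by cell type. All 5 listed beta cell factors were called higher and all 7 listed non-beta factors lower, against 22.1% and 11.1% of all tested genes. Their medians were 2.56 and -3.02. Mafa (chr15:75745490-75748228, minus strand), an activator of insulin transcription, stood at 13.2 and 37.9 RPKM in immature, 122.6 and 122.4 in mature and 1.01 and 1.96 in double negative cells (4.47, SE 0.40, limma adjusted p = 0.00038). Its immature replicates differed widely but both lay above the double negative libraries. Nkx6-1, which keeps beta cells from non-beta fates, stood at 39.0 and 51.5, 72.5 and 71.3, and 6.96 and 7.5 RPKM (2.81, SE 0.11). Its stages were nearer to each other than to double negative cells. Mnx1, a homeobox gene of beta cell development, stood at 5.01 and 4.64, 7.36 and 7.70, and 0.121 and 0.274 RPKM (2.56, SE 0.09). Pdx1, the homeobox activator of insulin and islet amyloid polypeptide genes, stood at 34.3 and 42.6, 63.7 and 67.7, and 11.3 and 12.9 RPKM (1.97, SE 0.10), so it was also present in double negative cells, and delta cells are known to express it. Ovol2, a zinc finger repressor, rose by 2.38 (SE 0.22), with 17.0% of its exonic bases shared with an opposite-strand transcript. It stood at 0.988 and 2.47 RPKM in immature, 12.6 and 12.0 in mature and 0.107 and 0.167 in double negative cells. Its immature values rest on 5 and 18 estimated reads, and its difference was 1.21 for the immature and 3.55 for the mature stage.

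Irx1 (chr13:71957921-71963723, minus strand), an alpha cell homeobox factor, stood at 7.57 and 6.60 RPKM in immature, 0.142 and 0.236 in mature and 46.9 and 36.1 in double negative cells (-3.77, SE 0.12). Hhex, the delta cell factor, stood at 10.2 and 10.1, 0.22 and 0.544, and 29.9 and 32.4 RPKM (-3.04, SE 0.11). Irx2, Etv1 and Pou3f4 were lower by -3.02, -2.15 and -2.15. For Irx1 and Hhex the immature libraries lay between the mature and the double negative libraries, with no overlap.

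Factors common to endocrine cells were mixed. Of 14 tested of 15 listed, 5 were called higher, 3 lower and 6 not called, against 22.1% higher and 11.1% lower of all tested genes. The median of these factors was 0.07. Without both immature libraries 7 were higher and 6 lower, against 3781 and 5234 of 13367 tested genes. Glis3, a zinc finger factor of beta cells, rose by 0.67, Tshz1 by 0.49 and the paired-box factor Pax6 by 0.42, with Pax6 at 35.5 and 31.1 RPKM in immature, 33.8 and 31.9 in mature and 24.3 and 24.4 in double negative cells. Isl1, a LIM-homeobox factor, fell by 0.62 and Foxa2, a pioneer factor, by 0.44. Hnf4a was lower by -0.47, a call lost when each beta cell group was tested on its own, and St18 rose by 0.44 and lost its call under all 3 rescalings. Neurod1, shared by all islet endocrine cells, stood at 58.5 and 56.4, 62.2 and 61.6, and 58.6 and 60.5 RPKM, with a difference of 0.00 (SE 0.04), and was called lower under quantile normalization and rescaling without hormone and acinar genes.

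The markers of the other endocrine cells were lower without exception among those called. Of 12 alpha cell markers, 10 fell, 0 rose and 2 did not pass; all 5 tested of 7 delta cell markers and all 3 PP cell markers fell. Medians were -2.91, -3.04 and -3.88, and 11.1% of all tested genes were lower. Gc, the vitamin D binding protein made by alpha cells, stood at 74.5 and 61.4 RPKM in immature, 25.8 and 27.4 in mature and 287 and 289 in double negative cells (-2.73, SE 0.08). Rbp4, a retinol carrier expressed in delta cells, stood at 158 and 144, 8.84 and 11.1, and 586 and 564 RPKM (-3.82, SE 0.09), and Ghsr, the ghrelin receptor of delta cells, at 1.70 and 1.70, 0.114 and 0.0925, and 7.19 and 8.16 RPKM (-2.33, SE 0.08). Ppy (chr11:102099930-102101319, minus strand), which encodes pancreatic polypeptide, stood at 4485 and 5639, 122 and 93.4, and 13237 and 14546 RPKM (-4.24, SE 0.14). Pyy, which encodes peptide YY, stood at 2806 and 2907, 48.7 and 62.1, and 5910 and 5873 RPKM (-3.88, SE 0.10). On the log2 scale, though not in RPKM, the immature libraries were nearer for Ppy and Pyy to the double negative than to the mature libraries. By group means on that scale the same held for Gcg, Sst, Ttr and Rbp4, while for Gc and Ghsr the immature lay nearer to the mature libraries.

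Of 15 listed beta cell surface and secreted genes, 10 rose, 2 fell and 3 did not pass, with a median of 2.39. The shares of all tested genes were 22.1% higher and 11.1% lower. Ucn3 (chr13:3940688-3945349, minus strand), whose promoter drives the eGFP reporter, stood at 20.3 and 31.8 RPKM in immature, 93.9 and 97.7 in mature and 1.07 and 2.83 in double negative cells (4.17, SE 0.28), and like Ins1 it bears on the sort. Npy, neuropeptide Y, rose by 3.90 and Ttyh1, a chloride channel family gene, by 3.29, with Ttyh1 at 16.9 and 16.9, 116 and 116, and 3.34 and 4.02 RPKM. Gjd2, which encodes the gap junction protein connexin 36 that couples beta cells, stood at 48.9 and 49.9, 67.7 and 65.5, and 10.0 and 10.3 RPKM (2.39, SE 0.04). Tmem27, a membrane protein also called collectrin, went the other way, at 518 and 436 RPKM in immature, 222 and 236 in mature and 936 and 1026 in double negative cells (-1.57, SE 0.09). The nuclear receptor gene Esrrg was lower by -0.44, a call lost without either double negative library.

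Genes of glucose sensing and electrical activity were called in part. Of 15, 7 rose, 1 fell and 7 did not pass, against 22.1% higher and 11.1% lower of all tested genes, with a median of 0.34. After G6pc2 and Slc2a2, the largest rise was that of the cation channel gene Trpm5, at 1.76 and 2.67 RPKM in immature, 5.98 and 5.35 in mature and 0.106 and 0.117 in double negative cells (2.05, SE 0.13). The calcium pumps Atp2a2 and Atp2a3, which refill the endoplasmic reticulum, rose by 1.30 and 0.95, and Atp2a3 lost its call under all 3 rescalings. Kcnj11, the pore of the ATP-sensitive potassium channel, fell by 0.50 (SE 0.06), with 41.3 and 44.7, 56.0 and 56.5, and 74.3 and 66.0 RPKM. Abcc8, the regulatory subunit of the same channel, overlapped between groups at 202 and 198, 147 and 145, and 207 and 197 RPKM, and was called lower under all 3 rescalings and without double negative replicate 2 or both immature libraries. Rescaled values gave 5 higher and 4 lower with median ratios, 6 and 4 with quantiles, and 5 and 4 without hormone and acinar genes. Without both immature libraries 9 were higher and 4 lower, against 3781 and 5234 of 13367 tested genes.

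Exocytosis genes differed in both directions by small amounts. Of 12, 6 rose, 4 fell and 2 did not pass, against 22.1% higher and 11.1% lower of all tested genes, with a median of 0.29. Snap25, a SNARE protein of granule fusion, stood at 32.0 and 31.3 RPKM in immature, 34.0 and 32.8 in mature and 21.0 and 23.1 in double negative cells (0.54, SE 0.05). Rims2, a scaffold at release sites, stood at 6.71 and 7.24, 7.06 and 6.27, and 10.3 and 10.8 RPKM (-0.56, SE 0.07). Both genes were at like levels in immature and mature cells in RPKM as deposited. Under the rescalings 1 or 2 of the 12 were called higher and 3 or 4 lower.

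Receptors and the cyclic AMP pathway again differed by member. Of 18 tested of 19 listed, 8 rose, 5 fell and 5 did not pass, with a median of 0.27. The shares of all tested genes were 22.1% higher and 11.1% lower. Among receptors that act on insulin release, Ffar1, the fatty acid receptor GPR40, stood at 21.8 and 24.4 RPKM in immature, 46.8 and 47.5 in mature and 6.58 and 6.36 in double negative cells (2.19, SE 0.06). Adra2a, the adrenergic receptor that restrains release, stood at 17.5 and 22.7, 63.8 and 63.4, and 2.91 and 3.46 RPKM, a difference of 2.33 for the immature and 3.95 for the mature stage. Chrm3, the muscarinic receptor, rose by 2.22 and Igf1r, the insulin-like growth factor receptor, by 2.64. The glucagon receptor gene Gcgr stood at 3.51 and 2.99, 3.30 and 3.23, and 0.294 and 0.537 RPKM (1.59, SE 0.11), nearly the same in both stages as deposited. Gipr, the receptor of the incretin GIP, stood at 16.9 and 17.7, 8.19 and 7.43, and 4.06 and 4.52 RPKM (1.26, SE 0.07), highest in immature cells.

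On the lower side were some somatostatin receptors, a lipid receptor and some adenylyl cyclases. Sstr2 stood at 4.29 and 2.44 RPKM in immature, 0.0787 and 0.174 in mature and 15.9 and 14.3 in double negative cells (-2.88, SE 0.18), and Sstr1 was lower by -1.51. Sstr3, by contrast, overlapped between the groups, at 22.4 and 22.7, 35.0 and 34.9, and 26.9 and 24.7 RPKM. Gpr119, a receptor of oleoylethanolamide, stood at 8.28 and 4.86, 1.51 and 1.28, and 22.8 and 23.9 RPKM (-2.53, SE 0.18). Adcy6 and Adcy5, which make cyclic AMP, were lower by -0.83 and -0.73, and Adcy6 lost its call when each beta group was tested on its own. Adcy5 stood at 0.596 and 0.621 RPKM in immature, 0.012 and 0.0479 in mature and 1.25 and 1.02 in double negative cells. It was tested only because of its double negative values. Adcy9, another cyclase of the list, was called higher, by 0.29, and lost its call under all 3 rescalings.

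Genes of protein folding and the unfolded protein response, which relieve the endoplasmic reticulum of a heavy secretory load, were mostly higher. Of 29, 17 rose, 1 fell and 11 did not pass, with a median of 0.64, against 22.1% higher, 11.1% lower and a median of 0.11 over all tested genes. Ero1lb, an oxidase that forms disulfide bonds in proinsulin, stood at 84.1 and 105 RPKM in immature, 357 and 347 in mature and 20.4 and 23.9 in double negative cells (2.99, SE 0.10). Trib3, induced by stress signalling, stood at 36.8 and 38.1, 108 and 106, and 16.9 and 15.3 RPKM (1.91, SE 0.05), and Edem1, which hands misfolded proteins to degradation, at 22.1 and 25.8, 36.7 and 36.0, and 8.48 and 8.73 RPKM (1.66, SE 0.07). The stress factor Ddit3 rose by 1.43, the glutathione-degrading Chac1 by 1.40 and Wfs1, the Wolfram syndrome gene, by 1.17. The chaperone gene Hspa5 missed the rule by a narrow overlap, at 438 and 403, 708 and 696, and 403 and 410 RPKM, and was called higher without immature replicate 2, without double negative replicate 2 and without both immature libraries. Hsp90b1, another chaperone gene, differed by -0.02 (SE 0.07). Pdia3, a disulfide isomerase, was the single gene lower, by -0.27, and lost its call after median-ratio rescaling, in the test of each beta group alone and without both immature libraries. After the rescalings 13, 12 and 12 were higher and 0, 3 and 3 lower, in the order median ratio, quantile and without hormone and acinar genes.

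Mitochondrial genes were called in both directions. Of 18 tested of 19 genes for pyruvate use, the tricarboxylic acid cycle and shuttles, 6 rose, 1 fell and 11 did not pass. Their median was 0.10, and the shares of all tested genes were 22.1% higher and 11.1% lower. Pcx, pyruvate carboxylase, stood at 16.7 and 22.5 RPKM in immature, 33.2 and 34.2 in mature and 7.09 and 6.60 in double negative cells (1.76, SE 0.11), and Got1, the cytosolic aspartate aminotransferase, rose by 1.01. Glud1, glutamate dehydrogenase, was lower by -0.72. Of 24 nuclear-encoded respiratory chain genes, 5 rose, 1 fell and 18 did not pass, with a median of 0.11. The higher share of the respiratory chain genes was near the 22.1% of all tested genes, and their median was close to that of all tested genes. Cox5a had the largest rise of them, 0.86. These counts moved with the scaling: between 2 and 6 pyruvate and cycle genes were lower and 2 or 3 higher after rescaling, and for the respiratory chain 2 were higher and 3, 6 and 5 lower. Leaving out both immature libraries gave 10 higher and 2 lower for pyruvate and cycle genes and 17 and 1 for the respiratory chain. In that run 3781 of 13367 tested genes were higher and 5234 lower.

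Disallowed genes, which beta cells keep low although most tissues express them, were for the most part not called. Of 20, 0 rose, 2 fell and 18 did not pass, so the lower share was near the 11.1% of all tested genes, with a median of 0.00. Limma with overlap allowed passed 6 higher and 5 lower, against 4424 and 2241 of 13367 tested genes. Oat, ornithine aminotransferase, stood at 21.9 and 21.7 RPKM in immature, 1.64 and 1.85 in mature and 43.2 and 39.7 in double negative cells (-2.42, SE 0.06), and Igfbp4 at 13.2 and 11.1, 0.20 and 0.203, and 24.6 and 20.7 RPKM (-2.57, SE 0.10). Ldha, lactate dehydrogenase A, stood at 52.7 and 54.9, 16.9 and 17.2, and 19.5 and 20.0 RPKM, so its immature libraries were highest and its groups overlapped. Without both immature libraries, mature cells alone were lower for 18 of the 20, against 5234 of 13367 tested genes in that run. In this list the stages parted.

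**Figure D3:**
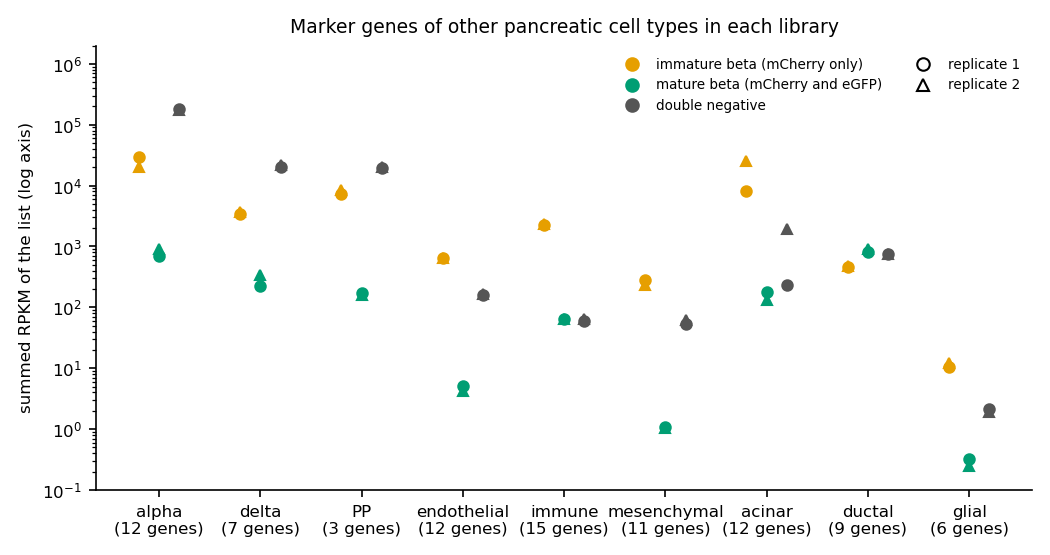
Summed RPKM of marker genes for each other cell type in each of the 6 libraries, on a log axis. Immature libraries carry more endothelial, immune, mesenchymal and glial marker RPKM than either other population, and mature libraries carry the least endothelial RPKM.

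Markers of cells outside the endocrine islet were mostly not shared by both stages. No endothelial (12), mesenchymal (11), tested acinar (9 of 12) or tested glial (3 of 6) gene was called, against 22.1% higher and 11.1% lower of all tested genes. Limma with overlap allowed passed 9 endothelial and 2 mesenchymal genes as lower and 1 acinar and 2 glial genes as higher. Of all 13367 tested genes it passed 2241 as lower and 4424 as higher. Levels of these markers were high in immature and low in mature cells. The 12 endothelial markers summed to 651 and 656 RPKM in immature, 5.06 and 4.20 in mature and 161 and 167 in double negative cells, and the 11 mesenchymal markers to 283 and 235, 1.07 and 1.03, and 54.1 and 61.5 RPKM. The 12 acinar markers summed to 8139 and 25620, 180 and 131, and 233 and 1927 RPKM, and differed most between replicates. The 6 glial markers summed to 10.6 and 12.1, 0.326 and 0.247, and 2.18 and 1.89 RPKM. In mature cells 1 of the 12 endothelial markers, Cldn5, was at 0. Without both immature libraries all 12 endothelial and all 11 mesenchymal genes were lower in mature cells, against 5234 of 13367 tested genes.

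Of 15 immune markers, 2 were called higher and 0 lower, against 22.1% and 11.1% of all tested genes. Without both immature libraries 1 was higher and 11 lower, against 3781 and 5234 of 13367 tested genes. Limma with overlap allowed passed all 15 as higher, against 4424 of 13367 tested genes. Their sum was 2283 and 2372 RPKM in immature, 63.8 and 64.9 in mature and 59.6 and 64.3 in double negative cells. Cd68, a lysosomal protein of macrophages, stood at 133 and 140 RPKM in immature, 42.2 and 42.3 in mature and 10.4 and 9.24 in double negative cells (2.84, SE 0.06), so it made up most of the mature sum. C1qa, of complement C1q, stood at 123 and 141, 15.9 and 16.5, and 15.8 and 15.5 RPKM, with a gap of only 0.006 in log2 between the nearest libraries, and lost its call under 2 rescalings and without both immature libraries. Ptprc, the leukocyte antigen CD45, was at 5.45 and 5.18 RPKM in immature and at 0 and 0.00611 RPKM in mature cells. Cd68 kept its call without both immature libraries. The part of immune cells in the values of these 2 genes was not tested.

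The 9 ductal markers summed to 457 and 477, 821 and 895, and 741 and 766 RPKM. Of 7 tested, 1 rose and 0 fell, against 22.1% higher and 11.1% lower of all tested genes. The gene that rose was the keratin gene Krt7, by 0.43, a call lost under all 3 rescalings. Early response genes, which dissociation and sorting can induce, were called in both directions. Of 16, 5 rose, 5 fell and 6 did not pass, against 22.1% higher and 11.1% lower of all tested genes. Their median was -0.14, and the rescalings gave 5 higher each and 8, 7 and 8 lower (median ratio, quantile, without hormone and acinar genes). Nr4a1, a nuclear receptor induced by calcium and cyclic AMP, stood at 25.2 and 24.8 RPKM in immature, 35.0 and 34.3 in mature and 7.36 and 7.52 in double negative cells (1.85, SE 0.04), and Atf3, Fosl2 and Ier3 rose by 1.56, 1.40 and 1.30. Jun stood at 70.5 and 70.0, 24.9 and 22.9, and 101 and 89.9 RPKM (-1.19, SE 0.06), and Junb, Btg2 and Klf4 were lower by -0.74, -0.70 and -0.62. The part of handling in these differences was not tested.

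**Figure D4:**
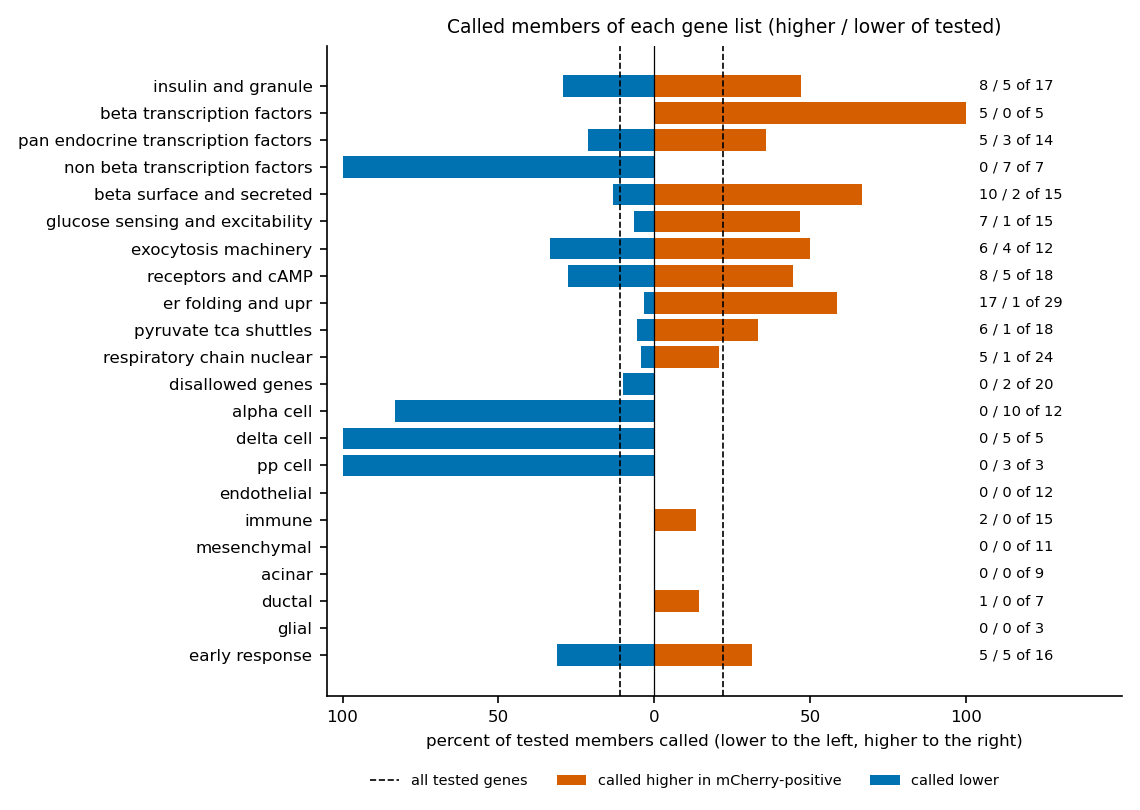
For each gene list, the bars give the percent of tested members called higher (right) and lower (left) in the positive libraries, the numbers at the right give the counts, and the dashed lines mark the shares over all tested genes (22.1% and 11.1%). Beta cell factors were all higher, non-beta factors and the delta and PP cell markers were all lower, and most pyruvate, respiratory and disallowed genes were not called.

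The threshold can be seen in genes just inside and just outside it. Rab27a, a small GTPase of granule docking, was called lower with a gap of 0.047 on the log2 scale, at 46.8 and 48.8, 61.3 and 59.3, and 65.6 and 63.3 RPKM, and lost its call after median-ratio rescaling, in the test of each beta group alone and without both immature libraries. Nkx2-2 was called higher at 21.4 and 20.8, 25.9 and 25.1, and 20.6 and 18.5 RPKM, and lost the call under all 3 rescalings and without mature replicate 1, mature replicate 2 or double negative replicate 2. These genes show how narrow a gap can pass. Sdf2l1, a chaperone partner, missed the rule at 63.7 and 62.0, 115 and 120, and 62.7 and 54.9 RPKM, where 1 immature library lay just under 1 double negative library, and Cox4i1, of cytochrome c oxidase, missed it at 82.2 and 83.2, 85.5 and 85.5, and 86.0 and 85.3 RPKM. Sdf2l1 was called without immature replicate 2, without double negative replicate 1 or without both immature libraries, and Cox4i1 was called lower under quantile normalization and rescaling without hormone and acinar genes.

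Immature cells lay between mature and double negative cells for 1374 of the higher and 1010 of the lower genes. Of the 2953 higher genes, both immature libraries were below both mature for 1374 (46.5%), above both for 1060 (35.9%) and overlapping for 519 (17.6%). Of the 1478 lower genes, both immature libraries were above both mature for 1010 (68.3%), below both for 220 (14.9%) and overlapping for 248 (16.8%). Over all tested genes the immature libraries were below for 22.5%, above for 60% and overlapping for 17.5%. The 68.3% of lower genes was thus not far from the share of all tested genes, while the 46.5% of higher genes stood against 22.5%. These shares are from RPKM as deposited and were not computed after rescaling. Median-ratio rescaling divided the immature libraries by 1.17 and 1.14 and the mature by 0.919 and 0.889, which lowers immature against mature values. Among the 33 higher genes with a gap of at least 4-fold, immature libraries were below mature for 28, above for 4 and overlapping for 1, and among the 17 lower genes they were above for 14 and overlapping for 3. Each stage was set against the same double negative libraries, and side by side the differences were 4.83 and 6.64 for Ins2, 3.60 and 5.28 for Pcsk1, 2.91 and 3.21 for Glp1r, -2.88 and -8.09 for Gcg and -3.15 and -3.76 for Nts, immature first.

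**Figure D5:**
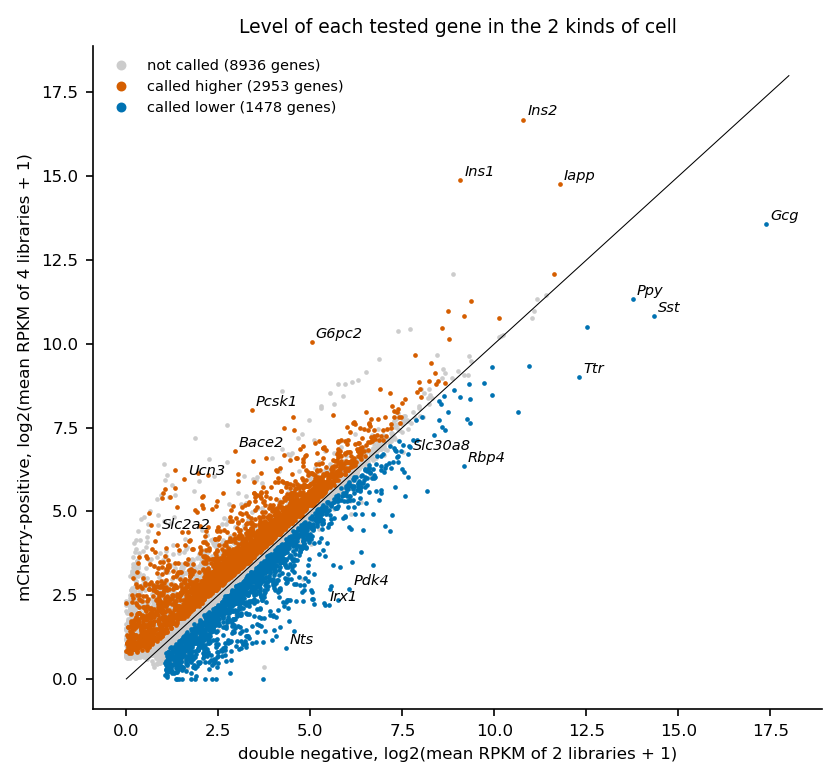
Each point is a tested gene, with log2(mean RPKM + 1) of the 4 positive libraries against that of the 2 double negative libraries, a line of equal levels, called genes in colour and some named genes labelled. Ins1, Ins2 and Iapp lie above the line at high levels, and Gcg, Sst, Ppy and Ttr below it.

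Some higher genes with gaps of at least 4-fold were near the same level in both stages in RPKM as deposited. With the pseudogene Gpr137b-ps passed over, the higher genes with the smallest difference between the stages on these values were Glp1r, Gjd2 and Msln, in that order. Their order was not computed after rescaling. Msln, which encodes the surface protein mesothelin, stood at 12.6 and 12.6 RPKM in immature, 9.31 and 8.41 in mature and 1.26 and 1.10 in double negative cells. Msln was chosen after its values were seen. On the lower side Ighv1-11 was at 0 in both stages, and Nts, Pappa2, Hapln1 and C8b followed in that order on the log2(RPKM + 1) scale. That scale compresses low values, and in each of these genes both immature libraries lay above both mature libraries. C8b, a complement component also chosen after its values were seen, stood at 7.06 and 4.56, 2.45 and 2.81, and 32.5 and 32.7 RPKM. By kind of gene, 23.2% of 11848 protein-coding genes were higher and 11.2% lower, against 17% and 9.6% of 188 long intergenic RNAs and 8% and 12.1% of 199 antisense genes, whose reads cannot be told apart from those of the opposite strand. Called genes differed little in exonic length from the rest, with medians of 4445 bases for higher, 4014 for lower and 4228 for all tested genes, and higher genes had a higher median level, 10.5 RPKM against 6.75 for lower and 6.52 for all.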

How the data were processed

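RNA sequencing was measured in 6 libraries, 2 per sorted population. The authors deposited 1 table of RPKM values, a column per library, matched to the samples by title. Per the submitters' processing notes, the tools were STAR 2.5, featureCounts and edgeR 3.14.0 on build GRCm38.p4. The settings, the annotation release and the handling of multiply mapped reads were not given in the sources used here. Because RPKM depends on a library's total, abundant hormone genes lower the values of other genes.

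Genes with RPKM of at least 1 in at least 2 libraries were tested with limma 3.58.1 in R 4.3.3 on log2(RPKM + 1), with a mean per population, an intensity trend, 3 residual degrees of freedom (prior 2.81) and Benjamini-Hochberg adjustment at 0.05. Rescaled values are alternatives. Depth was recovered from RPKM steps with GENCODE M21 lengths on GRCm38: 78.1% to 83.8% of values under 200 reads were whole within 0.02 reads. Floors of 3 reads cover counting error only. Coordinates are from the same annotation.

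Named were Ins1 and Ins2, the 14 genes with the largest gap in each direction (mean of at least 5 RPKM on the higher side, predicted genes and pseudogenes passed over) and up to 4 called members per list and direction. Some other list members are named too, because of what they are known to do. Members and lists were chosen with earlier results of these data known. The test was also run on simulated data with the same added noise in every library and the same change in both beta groups. The real libraries differ in both respects, so that run does not give the error rate here. The values of some list members are not reported here, although they are counted in their lists.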

Additional observations from a re-analysis of the deposited data

How the results depend on the processing

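Both counts of called genes kept to within 1.5 times of 2953 higher and 1478 lower under other pseudocounts, filters, median-ratio rescaling, no trend, the test of each beta group alone and voom on recovered reads (the last chosen after seeing the data). Quantile normalization gave 1850 higher and 2617 lower, rescaling without hormone and acinar genes 1645 and 2888, and a single mean for the positive libraries 413 and 150. In the last, the spread between stages enters the error, so no non-beta factor, PP or delta marker was called; of 103 named genes, 35 kept their call in all alternatives and 50 lost it only there. Limma without the overlap condition gave 2241 lower. Leaving out both immature libraries, also chosen after seeing the data, gave 5234 lower. Leaving out 1 library gave 2170 to 3519 higher and 1065 to 2067 lower. Deviations of same-numbered libraries were weakly correlated (-0.009, 0.140 and -0.112), which cannot show whether the libraries were paired. The replicate block gave 2829 higher and 1420 lower. No call reversed. With 2393841 and 3448925 reads, the immature libraries limit low genes most.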
